A study of Mus musculus with 48 samples.

Results

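CA3 pyramidal cells taken from the dorsal pole of the mouse hippocampus were compared with CA3 pyramidal cells taken from its ventral pole. The comparison used 6 RNA-seq libraries, 3 dorsal and 3 ventral, of the 48 libraries in the series, and covered every mouse gene row of the deposited count table, 37620 genes in all, leaving out 92 spike-in RNAs and 5 summary lines. Of these genes, 15549 had enough reads to be tested. Dorsal and ventral pyramidal cells of CA1 and dentate gyrus (DG) granule cells of either pole, 3 libraries each, entered the same fit and served to show where the CA3 difference was unlike that of the neighbouring fields. Each library was made from total RNA of fluorescent neurons picked by hand from dissected slices. The genotype, strain, age, sex and number of animals, the source of the fluorescence and the number of cells per library were not given in the sources used here. The design text calls the 3 libraries of a population biological replicates, but nothing in the labels assigns them to separate animals. The p-values therefore measure spread between libraries. That spread was estimated over all 18 libraries of the fit, so the p-values of the CA3 contrast do not rest on the 6 CA3 libraries alone.

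CA3 pyramidal cells receive mossy fibre synapses from dentate granule cells, excite one another through recurrent collaterals and send Schaffer collaterals to CA1. The hippocampus is divided along its long axis: the dorsal pole is best known for its part in spatial learning, and the ventral pole, with its links to the amygdala, hypothalamus and prefrontal cortex, for its part in anxiety and motivated behaviour. CA3 cells at either pole share the same overall circuit, and the comparison asks which genes separate them.

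The 6 libraries held 21491589 to 30931038 reads assigned to genes, dorsal 23335516 ± 1809343 and ventral 27190886 ± 3241152 (mean ± SD, n = 3), against 5116568 to 31984948 over the series. Levels below are counts-per-million (CPM) on the scaled library sizes, listed for replicates 1, 2 and 3 in that order, with dorsal CA3 before ventral CA3 where both are given. CPM is not divided by gene length, so levels are compared between libraries and never between genes. Replicate 3 of ventral CA3 stood apart from the other ventral libraries. The chi-square per degree of freedom over genes was 73.2 and 69.5 between it and ventral replicates 1 and 2, 17.8 between those 2, and 26.5 to 36.6 among the dorsal libraries, so no pair agreed within sampling noise. A gene described with its levels that changed its call, or moved by over 1.5 times, without that or another library is given with its value without it. A dagger (†) marks genes named without a fold change whose call was lost when at least 1 of the CA3 libraries was left out.

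CA3 markers were read at both poles. Grik4, a kainate receptor subunit enriched in CA3, stood at 102, 71.4 and 65.3 CPM in dorsal CA3 and 67.5, 76.5 and 60.01 CPM in ventral CA3, the groups overlapped, and its means in dorsal and ventral CA1 were 1.702 ± 0.759 CPM and 11.97 ± 4.55 CPM (SD, n = 3). Trps1, a zinc-finger transcription factor, was read at 386, 589 and 515 CPM dorsally and 266, 272 and 543 CPM ventrally, again overlapping, against means of 8.29 to 26.4 CPM in CA1 and DG. Several other CA3 or general excitatory markers were lower at the ventral pole. Of the 10 markers listed, 6 were called higher in dorsal CA3 and 0 higher in ventral CA3, at an adjusted p under 0.05, with a median log2 difference of 1.02. Over all 15549 genes tested, 4.97% were called in either direction, 2.50% higher in dorsal and 2.48% higher in ventral CA3, and the median log2 difference was -0.04. Neurod6, a pyramidal-cell transcription factor, was at 827, 774 and 885 CPM in dorsal CA3 and 219, 202 and 434 CPM in ventral CA3, a log2 difference, dorsal minus ventral, of 1.54 ± 0.22 (± SE, adjusted p = 1.08e-04, edgeR's quasi-likelihood test). Its dorsal libraries all lay above its ventral ones, and ventral replicate 3 was the highest of the ventral libraries. Camk2a, the kinase subunit of excitatory synapses, was at 3244, 3431 and 3364 CPM dorsally and 2117, 1931 and 1759 CPM ventrally (0.79 ± 0.11, adjusted p = 7.60e-05). Cpne4, a calcium-dependent membrane-binding copine, was at 651, 810.0 and 762 and 272, 306 and 468 CPM (1.09 ± 0.27, adjusted p = 0.0201), and Nectin3, an adhesion molecule, at 404, 391 and 387 and 169.9, 150.2 and 199 CPM (1.19 ± 0.34, adjusted p = 0.0451). The latter pair were close to the threshold: the adjusted p of Cpne4 was 0.0891, 0.0708, 0.125 and 0.116 without dorsal replicate 2, dorsal replicate 3, ventral replicate 1 and ventral replicate 2, and that of Nectin3 was 0.0706 to 0.209 when any of the 6 libraries was left out; with no filter on low counts they were 0.0898 and 0.181. In pooled cells, fewer cells of a type and less RNA per cell cannot be told apart.

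Markers of other cells were low but not even across the libraries. The GABAergic genes Gad1, Gad2 and Slc32a1 reached at most 0.411, 0.0411 and 0 CPM in any CA3 library; the list's summed level was 12.7 to 27.8 CPM in dorsal and 6.601 to 14.8 CPM in ventral libraries, and 1 of its 8 tested genes, Sst†, was called (higher in dorsal). Microglial C1qb, C1qc, Cx3cr1 and Tmem119 and the endothelial marker Cldn5 were at 0 in all 6. Of oligodendrocyte genes, 0 of 10 were called in either direction (list sum 25.1 to 214 CPM dorsal, 26.2 to 179 CPM ventral). Granule-cell Prox1 was at 7.44, 0 and 0 CPM and 1.23, 0.668 and 0 CPM; 3 of 10 tested granule-cell genes were called higher in dorsal CA3 and 2 in ventral CA3 (list sum 46.9 to 92.3 CPM and 18.4 to 57.9 CPM; 2 to 3 and 1 to 3 with 1 CA3 library left out). Some mossy-cell markers of the hilus were read mainly in ventral CA3, most in its replicate 3: Csf2rb2 was at 0 in all 3 dorsal libraries and at 0.493, 5.19 and 31.8 CPM in ventral CA3, and 2 of 5 tested genes of the list, Calb2 and Drd2, were called higher in ventral CA3 and 0 in dorsal (list sum 55.7 to 80.4 CPM against 121 to 503 CPM; 1 to 3 ventral calls with 1 CA3 library left out, the fewest without ventral replicate 3, and 0 with only the 6 CA3 libraries fitted). Calcrl of that list leaned the other way, with overlap, at 5.31, 7.99 and 4.55 CPM and 4.23, 5.74 and 3.06 CPM. It was lowest in ventral replicate 3. Ajap1 overlapped too, at 70.8, 46.5 and 54.99 CPM and 37.9, 45.7 and 114 CPM. Nmb was at 0.478, 1.25 and 0.785 CPM and 1.35, 2.55 and 4.42 CPM. Of CA1 markers, 7 of 8 tested were called higher in ventral CA3 and 1, Man1a†, in dorsal CA3 (list sum 77.2 to 93.4 CPM and 107 to 214 CPM; 5 to 6 ventral calls with 1 CA3 library left out and 4 with only the 6 CA3 libraries fitted). Fibcd1 was at 6.49, 3.69 and 10.6 CPM in ventral CA3, with means of 182 and 305 CPM in dorsal and ventral CA1. Wfs1† was at 59.97, 54.8 and 71.8 CPM, with means of 1403 and 89.6 CPM in dorsal and ventral CA1. Its call was lost whichever of the 6 CA3 libraries was left out. Ndst4 was at 6.24, 18.9 and 93.2 CPM, with means of 91.8 and 47.7 CPM in dorsal and ventral CA1, so ventral replicate 3 was above both. Pou3f1 of that list was at 0 in every CA3 library and in CA1. Of CA2 markers, 2 of 9 tested, Amigo2 and Necab2†, were called higher in ventral and 0 in dorsal CA3 (list sum 34.9 to 54.3 CPM and 168 to 255 CPM), while the CA2 gene Rgs14 was at 7.97, 5.15 and 8.79 CPM and 10.5, 5.62 and 3.94 CPM. Among astrocyte genes 1 of 5, Slc1a3†, was called higher in ventral CA3 (list sum 2.498 to 4.72 CPM and 6.77 to 13.1 CPM), and none of 3 microglial, 4 endothelial or mural and 2 choroid plexus genes tested was called, with list sums of at most 6.64, 20.6 and 34.3 CPM in any library. The part of these cells in the results below was not tested.

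**Figure D1:**
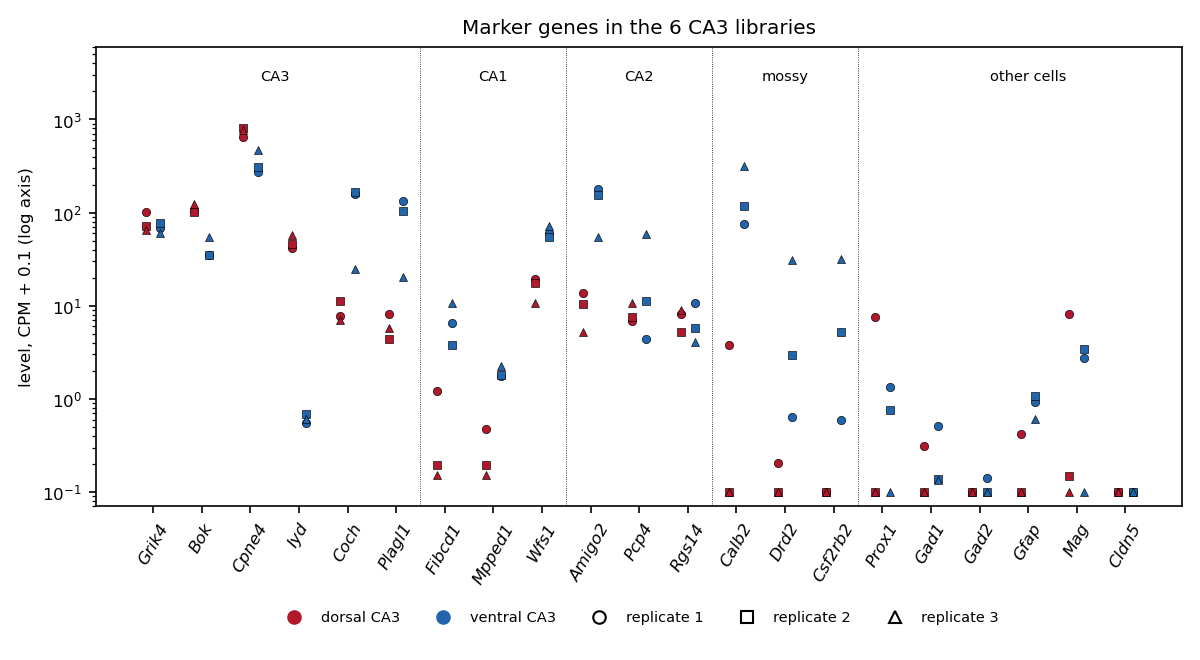
Levels of marker genes in the 6 CA3 libraries, in CPM plus 0.1 on a log axis, by replicate (circle, square, triangle), dorsal in red and ventral in blue. Grik4 overlapped between the poles, Iyd and Coch separated them in opposite directions, and the mossy-cell genes Calb2, Drd2 and Csf2rb2 were highest in ventral replicate 3. Ajap1, Calcrl and Nmb of the mossy-cell list are not shown.

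Genes already known as markers of the CA3 poles separated the libraries. Iyd (ENSMUSG00000019762), which encodes iodotyrosine deiodinase, an enzyme that recovers iodide from iodinated tyrosines, was at 41.99, 45.9 and 57.3 CPM in dorsal CA3 and 0.452, 0.589 and 0.51 CPM in ventral CA3. Every dorsal library lay above every ventral one, and the log2 difference was 6.53 ± 0.95 (adjusted p = 1.89e-04), a 92.3-fold higher dorsal level. Coch (ENSMUSG00000020953), which encodes the secreted protein cochlin, was at 7.65, 11.2 and 6.91 CPM in dorsal CA3 and 157, 164 and 24.7 CPM in ventral CA3. All ventral libraries were above the dorsal ones, with replicate 3 far below the other ventral libraries, and the log2 difference was -3.75 ± 0.57 (adjusted p = 3.30e-04; 0.0566 when only the 6 CA3 libraries were fitted). Plagl1, an imprinted zinc-finger transcription factor, was also lowest in replicate 3 among the ventral libraries, at 8.03, 4.28 and 5.65 CPM against 134, 103 and 20.4 CPM (-3.84 ± 0.68, adjusted p = 9.64e-04). The collagen gene Col6a1 was at 1.33, 3.99 and 0.262 CPM and 17.6, 11.8 and 10.5 CPM; its groups did not overlap, and its difference of -2.83 ± 0.99 did not pass the test (adjusted p = 0.126; -4.04 and 0.0891 without dorsal replicate 2).

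The promoters of Iyd and Coch are shown because these genes are the dorsal and the ventral marker with the smallest p-values among the markers known beforehand. Each is 300 bases, 250 before and 50 after the annotated start, 5′ to 3′, from RefSeq on GRCm38.p6; capitals mark matches, on either strand, to TATAAA (the core of a TATA box) and CAGATG (an E-box of the type bound by NeuroD factors), which do not overlap each other.
Iyd (chr10:3540024-3540323, plus strand): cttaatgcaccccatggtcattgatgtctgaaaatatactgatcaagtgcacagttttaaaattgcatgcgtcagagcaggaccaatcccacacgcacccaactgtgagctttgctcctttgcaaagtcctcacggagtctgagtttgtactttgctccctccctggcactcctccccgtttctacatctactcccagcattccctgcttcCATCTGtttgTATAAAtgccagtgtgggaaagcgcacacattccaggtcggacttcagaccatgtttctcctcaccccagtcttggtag
Coch (chr12:51593091-51593390, plus strand): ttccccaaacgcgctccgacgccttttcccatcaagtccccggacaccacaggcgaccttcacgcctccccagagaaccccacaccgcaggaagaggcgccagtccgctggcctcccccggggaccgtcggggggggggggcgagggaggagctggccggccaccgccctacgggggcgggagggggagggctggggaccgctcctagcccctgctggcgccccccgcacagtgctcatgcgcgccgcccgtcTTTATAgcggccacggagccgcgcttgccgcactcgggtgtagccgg
Iyd held 1 TATAAA and 1 CAGATG; Coch held 1 TATAAA and 0 CAGATG. Of 32851 promoters of the same length, 13.6% held TATAAA, 17.2% held CAGATG and 2.65% held both. The matches describe the letters only, and nothing in these data measures binding to them.

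Over all genes, 773 of 15549 tested were called between the poles, 388 higher in dorsal and 385 higher in ventral CA3. The ventral calls were larger: 340 of them differed by at least 2-fold and 283 by at least 3-fold, against 198 and 104 of the dorsal calls. Without an adjustment, 1117 genes were higher in dorsal and 1144 higher in ventral CA3 at p under 0.05. In 28.0% of the genes tested the dorsal and ventral libraries did not overlap. The total fell to 436, 452 and 454 without dorsal replicate 3, ventral replicate 2 and dorsal replicate 2, and fitting only the 6 CA3 libraries raised it to 1540, 844 higher in dorsal and 696 higher in ventral CA3. Among the smallest p-values were those of Tenm1 and Etv1, higher in ventral CA3, and those of Cacna1e and Bcl11b, higher in dorsal CA3, which are described with their families.

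**Figure D2:**
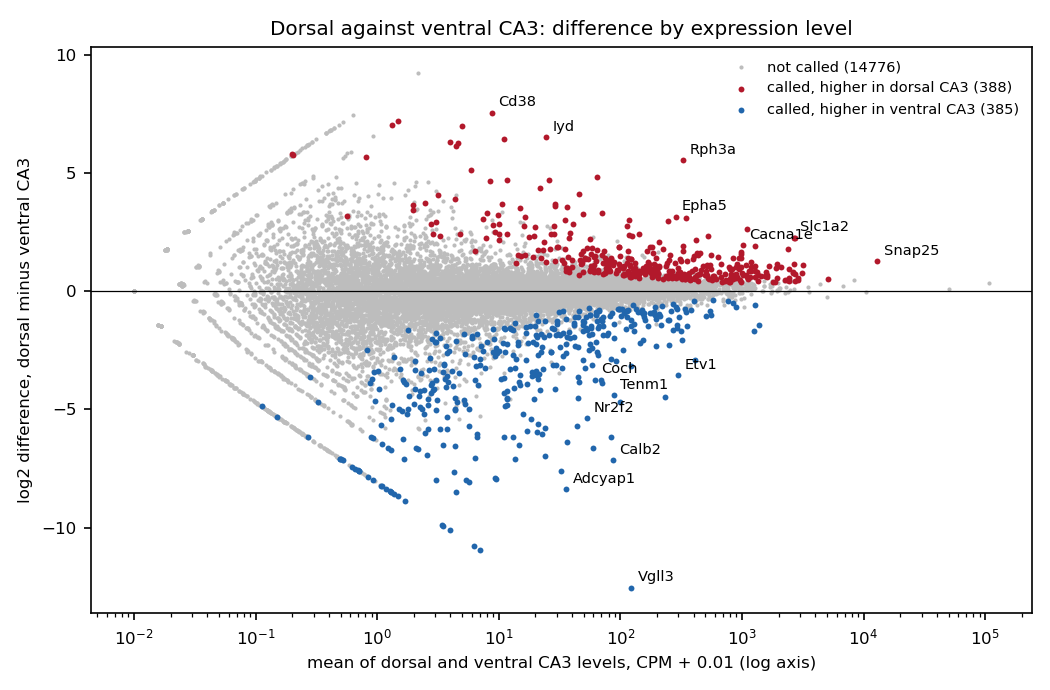
Difference between the poles for each of 15549 genes tested, as the log2 difference of dorsal minus ventral CA3, against the mean level in CPM plus 0.01 on a log axis. Called genes are red (388, higher in dorsal) and blue (385, higher in ventral); the blue points reach larger differences at low and middle levels, and the red points include Snap25.

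The genes that differed most in favour of dorsal CA3 were Cd38, Iyd, Sema3c, Rph3a, Qpct, Prkcd, Sema5b, Stxbp6, Meis2, Fxyd7, Fstl4 and Lrrc55, ranked by size among called genes whose higher group averaged 10 CPM or more and whose groups did not overlap. Cd38, an ectoenzyme that consumes NAD and forms cyclic ADP-ribose, was at 14.9, 24.8 and 13.1 CPM in dorsal CA3 and 0.0411, 0.0786 and 0.136 CPM in ventral CA3, where it rested on 7 reads in all. Its dorsal level was 188-fold higher (7.55 ± 0.89, adjusted p = 3.45e-05). Rph3a, which encodes rabphilin, a Rab3 effector on synaptic vesicles, was at 518, 707 and 714 CPM dorsally and 5.54, 1.22 and 34.5 CPM ventrally. The highest ventral library, replicate 3, was still far below the lowest dorsal one. Its log2 difference was 5.54 ± 0.88 (adjusted p = 0.00155), 7.58 without ventral replicate 3, and its adjusted p was 0.0926 when only the 6 CA3 libraries were fitted. Prkcd, the delta isoform of protein kinase C, was at 92.4, 107 and 173 CPM against 3.24, 6.72 and 2.99 CPM (4.84 ± 0.54, adjusted p = 1.03e-05), and its means in CA1 and DG were at most 0.214 CPM. Sema5b, a transmembrane semaphorin, was at 47.5, 53.4 and 50.1 CPM against 1.64, 0.982 and 3.09 CPM (4.71 ± 0.53, adjusted p = 1.11e-05), with dorsal libraries close to one another. Sema3c, a secreted semaphorin, was at 18.6, 19.1 and 27.3 CPM against 0.411, 0.0393 and 0.272 CPM (6.45 ± 1.203, adjusted p = 0.00173).

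The remaining dorsal genes of this ranking came from several functions. Qpct, the enzyme that forms N-terminal pyroglutamate on peptides, was at 8.34, 11.8 and 14.02 CPM in dorsal CA3 and 0.493, 0.118 and 0.34 CPM in ventral CA3 (5.14 ± 1.03, adjusted p = 0.00573). Stxbp6, or amisyn, which binds SNARE proteins, was at 24.1, 29.2 and 14.7 CPM and 0.657, 1.73 and 0.238 CPM (4.71 ± 0.69, adjusted p = 3.30e-04; 5.68 without ventral replicate 2), and its mean was 517 CPM in dorsal and 328 CPM in ventral granule cells. The homeodomain factor Meis2 was at 27.3, 13.8 and 8.16 CPM and 0.862, 0.904 and 0.204 CPM, with dorsal replicate 1 the highest (4.65 ± 0.57, adjusted p = 1.59e-05; 4.05 without dorsal replicate 1). All 3 of these separated the poles without overlap, as the ranking required. Fxyd7, a regulator of the sodium-potassium pump, was at 37.2, 42.1 and 46.2 CPM and 1.31, 1.69 and 3.09 CPM (4.36 ± 0.76, adjusted p = 9.37e-04). Fstl4, a follistatin-like secreted protein, was at 71.01, 81.3 and 108 CPM and 2.87, 1.89 and 10.1 CPM (4.12 ± 0.54, adjusted p = 3.92e-05; 5.18 without ventral replicate 3). Lrrc55, an auxiliary gamma subunit of the BK calcium-activated potassium channel, was at 51.3, 68.9 and 42.5 CPM and 3.61, 3.77 and 5.17 CPM (3.69 ± 0.54, adjusted p = 1.40e-04). Ventral levels of these genes were low but above 0 in each library.

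Vgll3, Tmem132c, Kcnmb2, Adcyap1, Drd2, Smo, Col23a1, Vav2, Cd44, Calb2, Hrh3 and Serpine2 differed most in favour of ventral CA3 by the same ranking, and most of them were nearly absent from the dorsal libraries. Vgll3, a cofactor of TEAD transcription factors, was at 0.106, 0 and 0 CPM in dorsal CA3, 2 reads in all, and at 371, 323 and 46.1 CPM in ventral CA3. Replicate 3 was the lowest ventral library, and the ventral level was 6898 times the dorsal one (95% counting interval 1909 to 56962, adjusted p = 1.72e-06). Intervals and floors here cover counting error only. Tmem132c, a transmembrane protein, was at 0 in every dorsal library and at 5.17, 13.2 and 24.01 CPM in ventral CA3, at least 91.98-fold higher when the dorsal side is set to 3 reads per library (adjusted p = 0.00178). Kcnmb2, the beta2 subunit of the BK channel, was likewise at 0 in dorsal CA3 and at 22.8, 12.9 and 2.14 CPM in ventral CA3, at least 82.2-fold higher by the same floor (adjusted p = 5.55e-04). The 2 BK auxiliary genes of the rankings, Lrrc55 and Kcnmb2, thus differed in opposite directions. Adcyap1, which encodes the neuropeptide PACAP, was at 0.266, 0 and 0.366 CPM dorsally and 51.4, 51.4 and 113 CPM ventrally, 335-fold higher on 12 dorsal reads (-8.39 ± 0.91, adjusted p = 3.65e-06; -7.796 and -9.03 without dorsal replicates 2 and 3). Fitted differences of genes with so few dorsal reads depend on the prior count and on which library holds those reads: without dorsal replicate 1 that of Vgll3 moved to -15.06, that of Tmem132c was -10.26 without ventral replicate 3, and that of Kcnmb2 was -9.998 without ventral replicate 1.

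Receptors and surface molecules made up much of the rest. Drd2, the D2 dopamine receptor, was at 0.106, 0 and 0 CPM and 0.534, 2.83 and 30.7 CPM, a ratio of 366 (95% counting interval 101 to 3027, adjusted p = 0.00841). Most of that ventral level came from replicate 3, the library with the highest summed level of mossy-cell markers, and the call was lost without ventral replicate 3 (adjusted p = 0.143), dorsal replicate 2 (0.0568) or dorsal replicate 3 (0.0569) and when only the 6 CA3 libraries were fitted (0.0798). Its fitted difference, -8.09 ± 1.704, was -5.32 without ventral replicate 3 and -10.62 without dorsal replicate 1. Calb2, which encodes the calcium-binding protein calretinin, was at 3.67, 0 and 0 CPM dorsally, with every read in replicate 1, and at 76.1, 119 and 319 CPM ventrally. Ventral replicate 3 was the highest, replicates 1 and 2 were also far above every dorsal library, and the log2 difference was -7.14 ± 1.28 (adjusted p = 0.00309; 0.0742 with only the 6 CA3 libraries). It was -14.54, -6.52, -6.53 and -6.31 without dorsal replicates 1, 2 and 3 and ventral replicate 3. Hrh3, the histamine H3 receptor, was at 0.266, 0.192 and 0.105 CPM and 15.9, 25.8 and 38.6 CPM (-7.11 ± 0.67, adjusted p = 5.17e-07). Cd44, a receptor for hyaluronan, was at 0.531, 0.433 and 0 CPM and 106, 71.04 and 17.6 CPM (-7.62 ± 0.95, adjusted p = 3.61e-05). Both were above every dorsal library in every ventral one, as the ranking required.

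Smo, which transduces Hedgehog signals, was at 0.106, 0 and 0 CPM and 18.6, 7.82 and 5.41 CPM, a ratio of 301 on 2 dorsal reads (95% counting interval 83.03 to 2489, adjusted p = 1.28e-04). Col23a1, a membrane-spanning collagen, was at 0.213, 0 and 0 CPM and 16.2, 17.5 and 23.4 CPM (-7.97 ± 1.001, adjusted p = 2.20e-05). Vav2, an exchange factor for small GTPases, was at 0.106, 0.0481 and 0.0523 CPM and 25.6, 21.96 and 7.55 CPM (-7.92 ± 1.16, adjusted p = 2.04e-04). The ventral libraries of these 3 genes were separated from the dorsal ones by at least an order of magnitude. Serpine2, a secreted protease inhibitor, was at 0, 0 and 0.262 CPM and 22.7, 11 and 4.01 CPM (-7.08 ± 0.87, adjusted p = 1.67e-05). The fitted differences of Smo were -10.52 and -7.303 without dorsal and ventral replicate 1, that of Col23a1 was -11.37 without dorsal replicate 1, and those of Serpine2 were -10.76 and -6.33 without dorsal replicate 3 and ventral replicate 1; all kept their call.

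**Figure D3:**
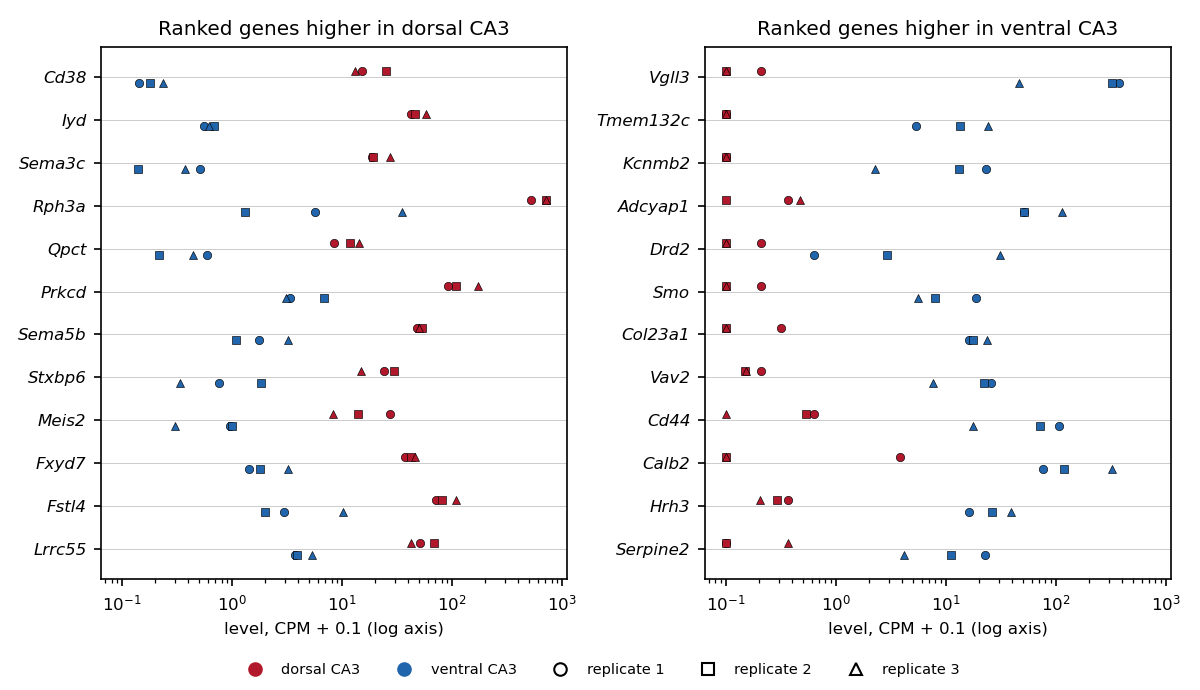
Levels of the 24 ranked genes in each CA3 library, in CPM plus 0.1 on a log axis, dorsal in red and ventral in blue, with a marker shape per replicate. The groups do not overlap for any gene, as the ranking required; ventral replicate 3 is the highest for Drd2 and Calb2 and the lowest for Vgll3, Kcnmb2 and Cd44.

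Genes of the presynaptic release machinery stood on both sides. Of 39 tested, 9 were called higher in dorsal CA3 and 4 in ventral CA3 (33.3% in either direction; median log2 difference 0.25). Snap25, a SNARE protein of synaptic vesicle fusion, was at 17589, 18119.8 and 19602 CPM in dorsal CA3 and 7499, 7076 and 8175 CPM in ventral CA3 (1.28 ± 0.14, adjusted p = 2.80e-06). Each dorsal library held at least 2 times the level of any ventral one. Syt7, a calcium sensor for slow forms of release, was at 346, 393 and 348 CPM and 122, 146 and 167 CPM (1.32 ± 0.14, adjusted p = 3.13e-06). Slc17a7, the vesicular glutamate transporter VGLUT1, was at 1427, 1121 and 1229 CPM and 759, 686 and 755 CPM (0.78 ± 0.16, adjusted p = 0.00524). Slc30a3, Syt1, Cplx2, Rph3a, Cadps† and Syt11† were also called higher in dorsal CA3. In the other direction, Doc2b, a high-affinity calcium sensor for release, was at 0.691, 0.962 and 0.262 CPM dorsally and 52.4, 46.8 and 22.5 CPM ventrally (-5.96 ± 0.41, adjusted p = 7.68e-09), and Syt17, a synaptotagmin relative, at 2.98, 0.7698 and 1.203 CPM and 108, 91.3 and 60.4 CPM (-5.71 ± 0.48, adjusted p = 1.21e-07; -6.47 without dorsal replicate 1). Cadps2 and Syt9† were the other ventral calls. With any 1 CA3 library left out, 7 to 8 were called higher in dorsal and 3 to 4 in ventral CA3.

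Among calcium, cyclic nucleotide and RGS signalling genes, 9 of 58 were called higher in dorsal CA3 and 8 in ventral CA3 (29.3%; median -0.07); 6 to 8 and 3 to 7 were called when 1 CA3 library was left out. Ppp3ca, the catalytic subunit of calcineurin, was at 2361, 2805 and 2928 CPM and 1273, 1200.4 and 1182 CPM (1.15 ± 0.09, adjusted p = 9.28e-08). Its sister subunit Ppp3cb† and the regulatory subunit Ppp3r1 were called in the same direction, as were Camk2a and Camk1d. Ventral CA3 had more of Pde1a, a calmodulin-dependent phosphodiesterase, at 503, 678 and 621 CPM dorsally and 2151, 1992 and 1636 CPM ventrally (-1.68 ± 0.15, adjusted p = 3.75e-07), and of Pde1b† and Pde1c†, the other members of that family. Necab1, a neuronal calcium-binding protein, was at 10.5, 27.95 and 20.9 CPM and 335, 408 and 596 CPM (-4.49 ± 0.42, adjusted p = 4.83e-07), with no overlap. Rgs4†, Necab2†, Camk2g† and Calb2 were the remaining ventral calls.

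Voltage-gated channel subunits differed in kind between the poles. Of 33 sodium, calcium and HCN channel genes tested, 8 were called higher in dorsal CA3 and 4 in ventral CA3 (36.4%; median 0.08); the counts were 3 to 6 and 3 to 4 with 1 CA3 library left out. Cacna1e, the pore of R-type calcium channels, was at 1558, 1636 and 1631 CPM in dorsal CA3 and 431, 373 and 438 CPM in ventral CA3. The libraries of each pole lay close together, and the log2 difference was 1.96 ± 0.12 (adjusted p = 2.71e-09). Cacna1a, the pore of P/Q-type channels, was at 258, 266 and 277 CPM and 125, 116 and 143 CPM (1.06 ± 0.16, adjusted p = 2.42e-04). The T-type pores were on the ventral side: Cacna1i was at 28.1, 25.5 and 15.7 CPM dorsally and 97.6, 96.1 and 117 CPM ventrally (-2.16 ± 0.33, adjusted p = 2.18e-04), and Cacna1g and Cacna1h† were called in the same direction. Pex5l, or TRIP8b, the auxiliary subunit of HCN channels, was at 28.6, 14.7 and 17.7 CPM and 147, 168 and 127 CPM (-2.85 ± 0.23, adjusted p = 7.39e-08). Scn8a, Scn4b† and Scn3b† were among the sodium channel genes called higher in dorsal CA3, and Cacnb4† and Cacng2† of the same list were called in that direction too.

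Potassium channel genes were called 9 times in favour of dorsal and 10 times in favour of ventral CA3 of 65 tested (29.2%; median -0.100; 5 to 7 and 6 to 12 with 1 CA3 library left out, 16 and 11 with only the 6 CA3 libraries fitted). Kcnd2, the Kv4.2 pore of the A-type current, was at 147, 154 and 187 CPM and 70.98, 67.2 and 90.1 CPM (1.098 ± 0.15, adjusted p = 6.26e-05), while its relative Kcnd3 was called higher in ventral CA3. A similar pair were their auxiliary proteins: Dpp6† was called higher in dorsal and Dpp10 higher in ventral CA3. Kcnab2, a Kv1 beta subunit, was at 239, 198 and 202 CPM and 119, 122 and 118 CPM (0.83 ± 0.15, adjusted p = 9.64e-04), and the Kv1 pores Kcna1† and Kcna2† were called in the same direction whereas Kcna3† was higher in ventral CA3. Kcng1, a modulatory Kv subunit that is silent alone, was at 33.01, 36.5 and 35.6 CPM and 80.9, 86.6 and 124 CPM (-1.47 ± 0.23, adjusted p = 3.24e-04).

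Of 25 ionotropic glutamate receptor and auxiliary genes, 4 were called higher in dorsal CA3 and 4 in ventral CA3 (32%; median 0.13; 1 to 4 and 1 to 4 with 1 CA3 library left out). Olfm1, a secreted protein found with AMPA receptors, was at 1079, 1363 and 1267 CPM and 667, 611 and 687 CPM (0.92 ± 0.12, adjusted p = 2.68e-05). Gria3, an AMPA receptor subunit, was at 630.2, 764 and 719 CPM and 433, 454 and 462 CPM (0.65 ± 0.14, adjusted p = 0.00773; 0.051 without dorsal replicate 2). Neither gene overlapped between the poles. Shisa9, or CKAMP44, an AMPA receptor auxiliary protein, was at 1.59, 1.06 and 0.209 CPM dorsally and 30.2, 27.7 and 9.89 CPM ventrally (-4.56 ± 0.55, adjusted p = 1.35e-05). Cnih3, a cornichon AMPA receptor auxiliary, was at 3.08, 3.99 and 6.12 CPM and 6.404, 16.1 and 17.6 CPM (-1.604 ± 0.38, adjusted p = 0.01305); the call was lost without dorsal replicate 1 (0.0734), dorsal replicate 2 (0.0729), ventral replicate 2 (0.0635) or ventral replicate 3 (0.0608). The other calls were Olfm3† and Neto2†, higher in dorsal, and Grid1† and Grik3†, higher in ventral CA3.

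Of 7 metabotropic glutamate receptors, 2 were called higher in dorsal CA3 and 1 in ventral CA3 (42.9%; median -0.63; 0 to 1 and 1 to 3 with 1 CA3 library left out). Grm7, a presynaptic receptor, was at 117, 121 and 119.9 CPM and 45.4, 54.6 and 66.5 CPM (1.11 ± 0.25, adjusted p = 0.00956; 0.0713 and 0.0514 without ventral replicates 1 and 2). Grm2, the receptor of granule-cell mossy fibres, was low at both poles, 0.159, 0.241 and 0 CPM and 1.27, 2.51 and 7.92 CPM (-4.78 ± 0.69, adjusted p = 1.17e-04; -5.501 without dorsal replicate 2 and -3.73 without ventral replicate 3). GABA receptor genes were called 1 time in favour of dorsal and 2 times in favour of ventral CA3 of 18 tested (16.7%; median -0.04; 0 to 2 and 2 to 3 with 1 CA3 library left out, 3 and 3 with only the 6 CA3 libraries fitted). Gabrb1, a beta subunit of the GABA-A receptor, was at 131, 118 and 132 CPM and 277, 299 and 197 CPM (-1.02 ± 0.16, adjusted p = 3.38e-04). Gabra3, an alpha subunit, was at 2.07, 1.203 and 0.209 CPM and 6.69, 8.96 and 4.35 CPM (-2.51 ± 0.49, adjusted p = 0.00247; -3.23 without dorsal replicate 1).

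Receptors for monoamines and for neuropeptides were called mostly in favour of ventral CA3. For monoamine and acetylcholine receptors 5 of 29 were higher in ventral and 1 in dorsal CA3 (20.7%; median -0.73; 2 to 6 and 0 to 2 with 1 CA3 library left out). Adra2a, the inhibitory alpha2A adrenergic receptor, was at 1.49, 1.395 and 1.47 CPM and 20.03, 29.2 and 26.05 CPM (-4.11 ± 0.67, adjusted p = 4.05e-04). Htr1a, the inhibitory 5-HT1A serotonin receptor, was at 7.28, 13.2 and 2.67 CPM and 55.7, 53.2 and 28.2 CPM (-2.56 ± 0.45, adjusted p = 9.64e-04; -3.19 without dorsal replicate 2). Adra1a†, Htr2a† and Drd2 were the other ventral calls. The exception was Htr2c, the 5-HT2C serotonin receptor, at 41.5, 21.9 and 40.03 CPM dorsally and 8.58, 4.87 and 2.14 CPM ventrally (2.73 ± 0.65, adjusted p = 0.0144; 0.0521, 0.0751 and 0.0678 without dorsal replicate 3, ventral replicate 2 and ventral replicate 3).

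For neuropeptide and growth factor receptors 5 of 36 were called higher in ventral and 1 in dorsal CA3 (16.7%; median -0.77; 3 to 5 and 1 with 1 CA3 library left out, 8 and 1 with only the 6 CA3 libraries fitted). Adcyap1r1, the PACAP receptor PAC1, was at 6.64, 6.496 and 9.47 CPM and 17.3, 15.4 and 25.6 CPM (-1.37 ± 0.24, adjusted p = 9.18e-04), the same direction as its ligand Adcyap1. Trhr, the receptor for thyrotropin-releasing hormone, was at 1.12, 0 and 0 CPM and 40.4, 49.5 and 51.8 CPM, with every dorsal read in replicate 1 (-6.99 ± 1.21, adjusted p = 0.00159; -12.68, -6.38 and -6.41 without dorsal replicates 1, 2 and 3). Sstr2, Npy1r† and Oxtr†, receptors for somatostatin, neuropeptide Y and oxytocin, were also called higher in ventral CA3. Npy2r, the presynaptic neuropeptide Y receptor, was at 309.6, 260.2 and 267 CPM dorsally and 98.97, 99.9 and 75.04 CPM ventrally (1.61 ± 0.31, adjusted p = 0.00232), opposite to Npy1r†.

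Of 27 neuropeptide and growth factor genes, 4 were called higher in dorsal CA3 and 2 in ventral CA3 (22.2%; median 0.07; 2 to 4 and 2 with 1 CA3 library left out, 4 and 4 with only the 6 CA3 libraries fitted). The granins of dense-core vesicles were split. Chgb, chromogranin B, was at 4752, 4435 and 4441 CPM in dorsal CA3 and 551, 529.7 and 1757 CPM in ventral CA3, where replicate 3 was the highest (2.26 ± 0.34, adjusted p = 4.46e-04; 3.07 without ventral replicate 3, adjusted p = 0.0845 with only the 6 CA3 libraries). Scg2, secretogranin II, was at 108, 77.9 and 74.6 CPM dorsally and 418, 408 and 432 CPM ventrally (-2.27 ± 0.18, adjusted p = 4.01e-08). Bdnf, brain-derived neurotrophic factor, was at 169, 178 and 183 CPM and 60.6, 57.4 and 89.9 CPM (1.35 ± 0.24, adjusted p = 0.00103). Sst† and Fgf13† were the other dorsal calls, Sst† at 15.2, 4.96 and 9.68 CPM against 0, 0 and 0.204 CPM.

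**Figure D4:**
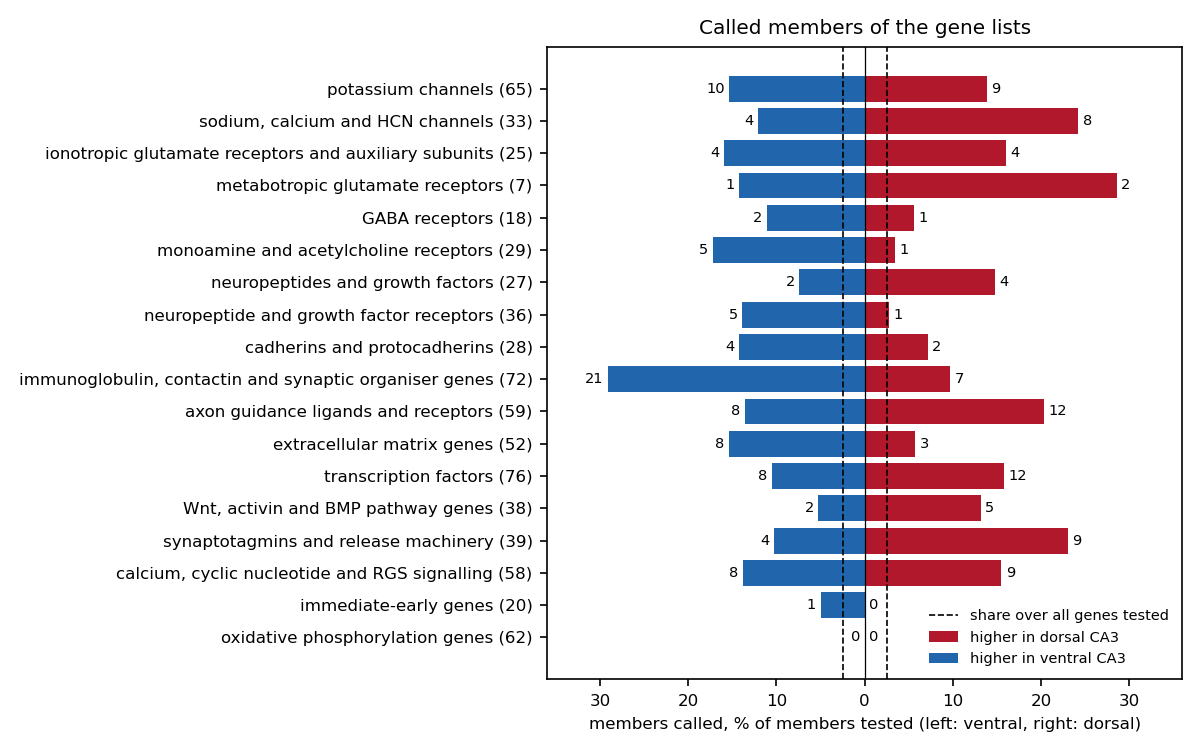
Share of the tested members of each function list that was called, marker lists not shown, in percent of the members tested, to the right for genes higher in dorsal CA3 and to the left for genes higher in ventral CA3, with counts at the bars and the number tested in parentheses. Dashed lines mark the share over all genes tested, 2.50% and 2.48%; no oxidative phosphorylation gene was called, and among these function lists the ventral bar is longest for the adhesion and synaptic organiser genes.

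Many cell adhesion and synaptic organiser genes were higher in ventral CA3. Of 72 immunoglobulin, contactin and synaptic organiser genes tested, 21 were called higher in ventral and 7 higher in dorsal CA3. That was 38.9% in either direction, against 4.97% over all genes tested, with a median of -0.29. With 1 CA3 library left out, 17 to 20 and 5 to 6 were called. Tenm1, a teneurin, a large transsynaptic adhesion protein, was at 11.3, 7.46 and 5.49 CPM dorsally and 141, 146 and 220.0 CPM ventrally. No library of either pole came near the other pole, and the log2 difference was -4.39 ± 0.26 (adjusted p = 2.46e-09). Tenm3 was at 23.1, 19.1 and 12.98 CPM and 80.6, 112 and 101 CPM (-2.41 ± 0.22, adjusted p = 4.18e-07), and Tenm2 and Tenm4 were called in the same direction, so all teneurins of the mouse were higher in ventral CA3. Complement-like synaptic organisers C1ql2 and C1ql3, the Kirrel3 adhesion protein and the leucine-rich repeat genes Lrrtm3, Lrrn1 and Flrt1 were also ventral calls. Higher in dorsal CA3 were the contactin-associated genes Cntnap2, at 382, 292 and 345 CPM and 76.4, 89.6 and 72.5 CPM (2.096 ± 0.32, adjusted p = 1.99e-04), and Cntnap5b, at 22.4, 15.7 and 9.16 CPM and 2.504, 2.08 and 3.84 CPM (2.48 ± 0.35, adjusted p = 1.01e-04), while Cntnap4 and Cntnap5a† went the other way.

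Of 28 cadherins and protocadherins, 4 were called higher in ventral and 2 higher in dorsal CA3 (21.4%; median 0.01; 2 to 5 and 1 with 1 CA3 library left out, 3 and 4 with only the 6 CA3 libraries fitted). The giant Fat cadherins were on the ventral side, Fat3 at 341, 343 and 307 CPM and 757, 745 and 537 CPM (-1.04 ± 0.14, adjusted p = 3.35e-05) and Fat4 at 22.4, 19.7 and 11.6 CPM and 43.7, 52.9 and 32.2 CPM (-1.26 ± 0.22, adjusted p = 8.83e-04). Cdh9, a classical cadherin of mossy fibre to CA3 synapses, was at 155, 176 and 154 CPM dorsally and 86.2, 69.4 and 78.6 CPM ventrally (1.05 ± 0.22, adjusted p = 0.00489). Cdh11 was at 254, 252 and 263 CPM and 151, 145 and 164 CPM (0.74 ± 0.21, adjusted p = 0.04302), and lost the call when any of the 6 libraries was left out (0.0719 to 0.178).

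Each Eph receptor called was higher in dorsal CA3, and each ephrin ligand called was higher in ventral CA3. Of 59 axon guidance genes tested, 12 were called higher in dorsal CA3 and 8 in ventral CA3 (33.9%; median -0.03; 6 to 12 and 5 to 9 with 1 CA3 library left out, 11 and 12 with only the 6 CA3 libraries fitted). Epha5, a receptor tyrosine kinase for ephrins, was at 413, 578 and 543 CPM in dorsal CA3 and 41.7, 47.4 and 83.3 CPM in ventral CA3 (3.15 ± 0.23, adjusted p = 2.17e-08). Epha6 was at 482, 511 and 515 CPM and 134, 175 and 151 CPM (1.71 ± 0.198, adjusted p = 8.63e-06), and Epha4, Epha7 and Ephb1† were called in the same direction. The ephrins called were of the transmembrane B class. Efnb2 was at 8.56, 7.07 and 2.88 CPM dorsally and 68.8, 50.02 and 40.97 CPM ventrally (-3.11 ± 0.43, adjusted p = 7.02e-05), and Efnb3 at 13.9, 3.99 and 5.13 CPM and 60.4, 47.3 and 30.4 CPM (-2.58 ± 0.35, adjusted p = 6.21e-05; -3.35 without dorsal replicate 1). Among semaphorins, Sema3c, Sema5a†, Sema5b and Sema7a† were called, each higher in dorsal CA3. Of the plexin and neuropilin genes, Plxna3, Plxnb2, Plxnc1† and Nrp2† were called higher in ventral CA3 and Plxna4† in dorsal CA3.

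Of 52 extracellular matrix genes tested, 8 were called higher in ventral and 3 higher in dorsal CA3 (21.2%; median -0.39; 5 to 7 and 3 to 4 with 1 CA3 library left out, 9 and 8 with only the 6 CA3 libraries fitted). The SPARC-related secreted proteins were on opposite sides. Spock3, a testican, was at 128, 134 and 121 CPM dorsally and 10.8, 11.7 and 16.4 CPM ventrally (3.299 ± 0.33, adjusted p = 1.11e-06), while Sparcl1, or hevin, was at 145, 135 and 114 CPM and 407, 391 and 425 CPM (-1.63 ± 0.14, adjusted p = 2.30e-07). The collagens Col12a1†, Col23a1 and Col6a2† were ventral calls, with Frem1†, Frem2†, Smoc1† and Coch, and the proteoglycan Ncan was a dorsal call with Fstl4.

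Transcription factors were called 12 times in favour of dorsal and 8 times in favour of ventral CA3 of 76 tested (26.3%; median -0.07; 8 to 9 and 6 to 10 with 1 CA3 library left out). Etv1, an ETS-family activator, was at 59.05, 43.98 and 36.9 CPM dorsally and 668, 626 and 365 CPM ventrally (-3.57 ± 0.23, adjusted p = 3.79e-09). Nr2f2, or COUP-TFII, an orphan nuclear receptor of caudal and ventral brain territories, was at 2.44, 5.004 and 0.157 CPM and 94.5, 98.7 and 121 CPM (-5.36 ± 0.66, adjusted p = 1.80e-05; -6.31 without dorsal replicate 2). Neither overlapped between poles. Thrb, Tshz1, Plagl1, Zbtb16† and Rxrg† were also called higher in ventral CA3. On the dorsal side, Bcl11b, or Ctip2, a zinc-finger regulator of projection neurons, was at 34.3, 25.4 and 28.4 CPM and 6.16, 6.25 and 5.64 CPM (2.29 ± 0.16, adjusted p = 7.76e-09), and Bcl11a†, Meis2, Tbr1, Neurod2†, Neurod6, Sox5, Tcf4†, Runx1t1†, Klf9†, Lmo4† and Foxp1† were called in the same direction.

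Of 38 Wnt, activin and BMP pathway genes, 5 were called higher in dorsal CA3 and 2 in ventral CA3 (18.4%; median 0.09; 3 to 4 and 2 with 1 CA3 library left out, and 7 and 8 in the fit of only the 6 CA3 libraries). Ligands and secreted modulators led the dorsal calls. Dkk3, a secreted Dickkopf-related protein, was at 1197, 1208 and 1254 CPM and 424, 452 and 494 CPM (1.42 ± 0.19, adjusted p = 6.21e-05), and Tgfb2, a TGF-beta ligand, at 303, 274 and 254 CPM and 78.7, 86.7 and 59.98 CPM (1.88 ± 0.34, adjusted p = 0.00113). Inhba, Bmp3† and Grem1† were called in the same direction. The type II activin receptor Acvr2a was at 80.5, 100.5 and 85.9 CPM dorsally and 309.6, 304 and 138 CPM ventrally (-1.49 ± 0.23, adjusted p = 2.45e-04), and the ligand Wnt7b at 2.18, 2.84 and 1.78 CPM and 29.8, 26.1 and 11.2 CPM (-3.298 ± 0.67, adjusted p = 0.00362).

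Lists of general cell state were called at a share near or below that of all genes tested, 4.97% in either direction. Of 20 immediate-early genes, 0 were called higher in dorsal CA3 and 1 in ventral CA3 (5%, median -0.03). The latter was Fosl2, a Fos-family factor, at 20.8, 19.1 and 15.9 CPM and 147, 128 and 57.5 CPM (-2.57 ± 0.43, adjusted p = 5.43e-04). None of 62 oxidative phosphorylation genes was called (median -0.16), and their summed level was 5914 to 6339 CPM in dorsal and 6163 to 6594 CPM in ventral libraries; the fit of only the 6 CA3 libraries called 6 of them higher in ventral CA3, and it called 3 immediate-early genes higher in dorsal and 1 higher in ventral CA3. Mitochondrially encoded RNA made up 16.7 ± 0.74% of reads in dorsal and 15.8 ± 1.48% in ventral CA3 (mean ± SD, n = 3 each).

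The same contrast was read in CA1 and in the dentate gyrus, which share no library with CA3, to ask how far the differences were common to the long axis. Depth was tied to the pole in both fields. Every dorsal CA1 library held more gene reads than any ventral one, and every ventral DG library more than any dorsal one. The CA3 poles lay closer in depth, but every ventral library again held more gene reads than any dorsal one. The ranges were 25204543 to 30931038 in ventral and 21491589 to 25108168 in dorsal CA3. Reads in no feature were 38.2 to 46.7% in DG, against 21.1 to 24.0% in CA3. The part of depth in the CA3 differences above and in the counts given below was not tested. Along the CA1 axis 1018 genes were called and along the DG axis 3010. Of the 773 genes called in CA3, 298 were also called in CA1 (38.6% of the CA3 calls and 29.3% of the CA1 calls), 241 in the same direction and 57 in the opposite one; over all genes tested 6.55% were called in CA1. For DG, 337 were shared (43.6% of the CA3 calls and 11.2% of the DG calls), 249 in the same direction and 88 in the opposite one, and 19.4% of all genes tested were called in DG. Called or not in the other field, 69.1% of the CA3 calls had the same sign in CA1 and 67.0% in DG, against 57.1% and 52.4% of all genes tested. Called in all fields were 162 genes, 56 higher in dorsal cells throughout, 61 higher in ventral cells throughout and 45 with mixed directions. Epha4, Epha5, Epha7, Plxna4†, Cacna1a, Kcnd2, Chgb, Syt7, Ppp3ca and Camk2a were among the 56. Etv1, Nr2f2, Efnb2, Hrh3, Col23a1, Serpine2, Plagl1, Necab1, Adra2a, Adcyap1r1, Oxtr†, Tenm4 and Kcnd3 were among the 61.

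The difference of the differences was tested in the same fit. The CA3 difference departed from that of CA1 for 547 genes (3.52% of those tested) and from that of DG for 1473 (9.47%); among the 773 genes called in CA3 it did so for 260 (33.6%) and 330 (42.7%). Among the 547 departures from CA1, the CA3 difference was the more dorsal one in 62.9%, and among the 1473 departures from DG in 55.9%, or 67.2% under upper-quartile scaling. Snap25 is one of the genes whose direction differed by field: its mean was 3874 ± 279.8 CPM in dorsal and 6158 ± 510.5 CPM in ventral CA1 (SD, n = 3), the reverse of CA3, and the CA3 minus CA1 difference was 1.95 ± 0.19 (adjusted p = 1.57e-06). Tgfb2 was likewise reversed in CA1, at 17.5 ± 8.25 CPM in dorsal against 104 ± 35.6 CPM in ventral cells (4.46 ± 0.48, adjusted p = 5.24e-06), as was Htr2c, at 8.296 ± 6.02 CPM and 90.8 ± 43.5 CPM (6.18 ± 0.93, adjusted p = 2.66e-04). In the teneurin family, Tenm3 was higher in dorsal CA1, 450.0 ± 37.98 CPM against 253 ± 49.6 CPM (-3.25 ± 0.31, adjusted p = 1.22e-06). Fat3 was higher in dorsal cells of both other fields, 908 ± 59.7 CPM against 270.1 ± 22.9 CPM in CA1 and 442 ± 45.5 CPM against 202 ± 18.02 CPM in DG (adjusted p of the departures 1.67e-08 and 3.28e-07). Doc2b showed a departure from both fields too, with 188 ± 33.96 CPM and 178 ± 9.48 CPM in dorsal and ventral CA1 and 155 ± 53.8 CPM and 43.3 ± 6.78 CPM in DG (adjusted p 2.21e-07 and 7.37e-09). Dkk3 departed from DG, where it was at 2.09 ± 1.39 CPM and 11.6 ± 2.44 CPM (adjusted p = 1.50e-07), and its departure from CA1 did not pass the test (adjusted p = 0.0681).

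**Figure D5:**
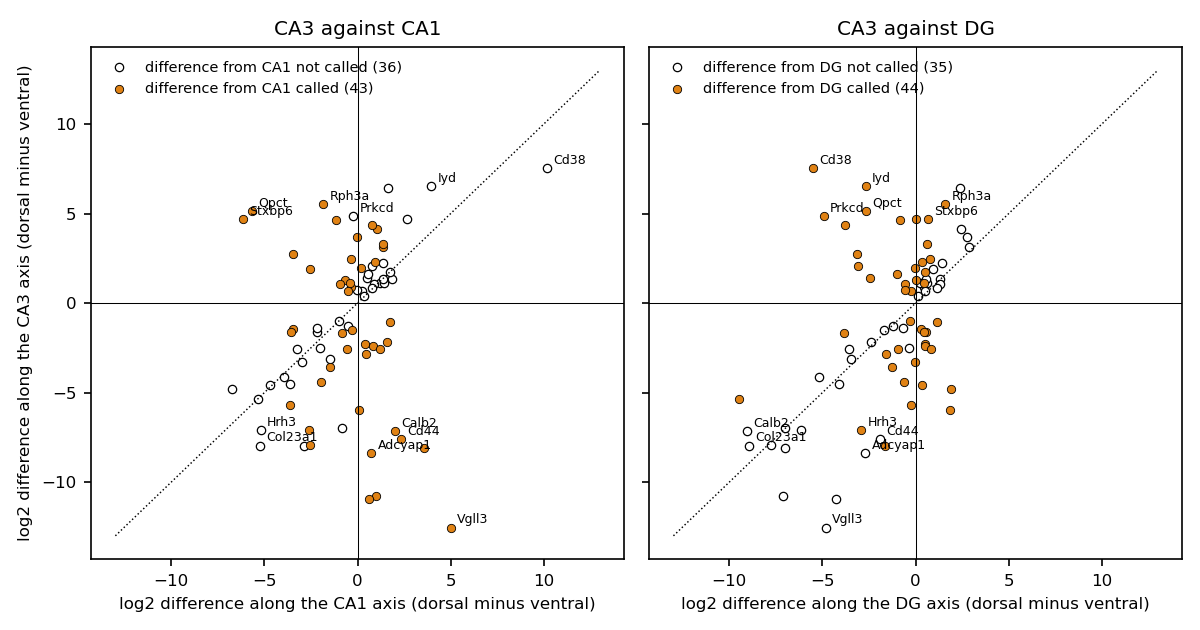
Log2 difference of dorsal minus ventral CA3 (vertical) against the same difference in CA1 (left) and in DG (right) for the 79 genes named by rank or by list. Orange points are genes whose CA3 difference departed from the other field in the test of the difference, 43 for CA1 and 44 for DG; the dotted line marks equal differences, and Cd38 lies near it for CA1 and in the opposite quadrant for DG.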

How the data were processed

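RNA was sequenced from hand-sorted fluorescent neurons after amplification with the Ovation RNA-seq v2 kit, per the labels' protocols. The values used are raw read counts for each Ensembl gene (NCBIM37/mm9), which the authors deposited in 1 table covering 48 libraries; TopHat2 2.0.6, HTSeq, DESeq2 and Cuffdiff 2.1.1 are named in the submitters' processing notes. Whether counting used strand is not given in the sources used here, so reads of overlapping or antisense genes cannot be told apart. The deposited FPKM table was not used. Reads in no feature, 21.1 to 24.0% in CA3 libraries, and spike-ins, 0.0875 to 0.473%, were left out of library sizes. Columns carry replicate numbers 1 to 3 and were assigned to groups by name; every column had a group. Symbols came from a reference table that named 32897 of the 37620 IDs.

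The 18 libraries of CA1, CA3 and DG at either pole were fitted with 1 coefficient per group in edgeR 4.0.16 (R 4.3.3; TMM scaling, filterByExpr, robust quasi-likelihood F test, 12 residual degrees of freedom, biological coefficient of variation 0.554), with Benjamini-Hochberg adjustment over all 15549 genes tested and calls at an adjusted p under 0.05. SEs were derived from the F statistic. The fields were compared by interaction contrasts. Named genes were the first 12 per direction by fold change among called genes of at least 10 CPM without overlap between groups (predicted, ribosomal, small RNA, mitochondrial and sex-linked genes excluded), the 2 called members with the smallest p per direction of each list, and the CA3 markers. Other members are named as called genes only. Some genes that were tested and counted are not reported here. The lists held 885 genes, of which 882 were in the table and 801 were tested. The comparison and the lists were chosen with earlier results of these data known. Alternatives were upper-quartile scaling, other filters, the 6 CA3 libraries alone, DESeq2 1.42.0, a replicate block and the omission of each CA3 library.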

Additional observations from a re-analysis of the deposited data

Results flagged for a closer look

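For genes of the 24 ranked, the difference between dorsal and ventral cells in CA3 departed from that in another field in the interaction test (edgeR's quasi-likelihood test, adjusted over all genes tested). Values are log2 differences of CA3 minus the other field ± SE; where a group holds no or few reads the fitted size depends on the prior count, and only the direction and the adjusted p should be read.

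The long-axis difference of Cd38 departed from that of DG by 13.09 ± 1.55 (adjusted p = 4.60e-05), and Cd38 was at 8.34 ± 3.69 CPM (SD, n = 3) in dorsal and 0 in ventral CA1, the same direction as in CA3. Iyd departed from DG by 9.22 ± 1.24 (1.02e-04), its DG means being 1.18 ± 1.06 CPM in dorsal against 7.59 ± 1.68 CPM in ventral cells. Rph3a departed from CA1 by 7.39 ± 1.21 (0.002404) and from DG by 3.96 ± 1.07 (0.03296); in DG it was also higher in dorsal cells, 669.6 ± 308 CPM against 223 ± 6.51 CPM. For Prkcd and Sema5b the departures from DG were 9.78 ± 1.54 (4.60e-04) and 4.67 ± 0.67 (2.05e-04); Sema5b was in DG at 22.9 ± 8.13 CPM and 22.2 ± 4.75 CPM.

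Qpct departed from CA1 by 10.82 ± 1.66 (7.06e-04) and from DG by 7.79 ± 2.28 (0.0409), both fields holding under 1 CPM. Stxbp6 departed from CA1 by 10.87 ± 1.21 (3.13e-05), where it was higher in ventral cells, and from DG by 4.05 ± 0.86 (0.00676). The departures of Meis2 were 5.78 ± 0.73 (3.50e-05) and 5.497 ± 0.91 (5.09e-04), with 43.2 ± 7.71 CPM in dorsal and 94.8 ± 14.2 CPM in ventral CA1. Those of Fxyd7 were 3.58 ± 0.98 (0.0444) and 8.17 ± 1.27 (2.76e-04). Fstl4 and Lrrc55 departed from CA1 by 3.09 ± 0.702 (0.0126) and 3.71 ± 0.75 (0.00508); their tests against DG did not pass.

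Among the ventral genes, Vgll3 departed from CA1 by -17.54 ± 1.68 (3.48e-06), with CA1 means of 1.67 ± 0.312 CPM in dorsal against 0.0386 ± 0.0669 CPM in ventral cells. Tmem132c departed from CA1 by -11.57 ± 2.35 (0.00789), Kcnmb2 by -11.74 ± 2.199 (0.00424), Adcyap1 by -9.14 ± 1.19 (5.21e-05) and Drd2 by -11.64 ± 2.86 (0.02902); all were below 1 CPM on average at both poles of CA1. Vav2 departed from CA1 by -5.36 ± 1.33 (0.0266), Cd44 by -9.95 ± 1.398 (1.99e-04), Calb2 by -9.15 ± 1.75 (0.006503) and Serpine2 by -4.499 ± 1.03 (0.0135). Serpine2 was higher in ventral CA1 as well, 12.8 ± 2.104 CPM against 76.6 ± 17.6 CPM. Smo departed from DG by -6.34 ± 1.36 (0.00503) and Hrh3 by -4.199 ± 0.82 (0.00235); both were higher in ventral DG on average, at 10.1 ± 4.401 CPM and 8.01 ± 3.08 CPM against 3.201 ± 1.33 CPM and 1.06 ± 0.617 CPM.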

How the results depend on the processing

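Of 91 named genes, 86 were called, and 76 of these stayed called whichever CA3 library was left out. Apart from the CA3 markers, the named genes were picked for small p-values or large differences without overlap, which favours their staying called. Of all 773 calls, each omission of 1 CA3 library kept 55.8 to 74.1%. None of the 86 reversed direction in any alternative. Of 201 listed genes called, 116 stayed called through every such omission and 12 lost the call in each. Fitting only the 6 CA3 libraries gave 1540 calls, 844 higher in dorsal and 696 higher in ventral CA3, with 685 of the 773 calls kept; Calb2, Chgb, Coch, Drd2 and Rph3a were lost there. The biological coefficient of variation was 0.370 in that fit. DESeq2 gave 1158 calls, of which 591 were higher in ventral CA3, and 855 and 2240 departures from CA1 and DG. Among the function lists, DESeq2 moved by over 1.5 times the ventral counts of Wnt, activin and BMP genes (2 to 8), metabotropic glutamate receptors (1 to 3), GABA receptors (2 to 4) and oxidative phosphorylation genes (0 to 2), and the dorsal counts of matrix genes (3 to 5) and monoamine receptors (1 to 3). Calls numbered 762 under upper-quartile scaling, 837 with no filter beyond 1 read and 808 with the filter on the CA3 libraries alone. Leaving out 1 CA3 library gave 436 to 659 calls, 202 to 324 higher in dorsal and 197 to 335 higher in ventral CA3, with 385 to 567 departures from CA1 and 959 to 1258 from DG.

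The replicate block gave 620 calls, 582 of them shared, and among the genes described lost Drd2 (adjusted p = 0.137) and Qpct (0.0513); it moved the ventral counts of calcium signalling genes from 8 to 5 and of ionotropic glutamate receptor genes from 4 to 2. The deviations of same-numbered libraries correlated at 0.112, 0.0206 and 0.198 across genes, and dorsal replicate 1 correlated best with ventral replicate 2 (0.181), so the numbers were not taken to pair the samples. No scaling moved the median difference of all genes by over 0.1. With no dorsal reads, the floor of 3 reads per library came to 0.154 CPM, the mean over the 3 dorsal libraries.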
